A study of Rattus norvegicus with 32 samples.

Results

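The aquaporin genes of C6 cells, a rat glioma line, were read from all probes of an Agilent rat array whose gene name was Aqp1, Aqp2, Aqp3, Aqp4, Aqp5, Aqp6, Aqp7, Aqp8, Aqp9 or Aqp11. These are 10 of 26583 gene names and 12 of 30367 probes, and the rule reads gene names, not values. The members were, however, chosen with earlier results of these data known. The paper had taken Aqp2 for qPCR, among genes picked by fold change and relevance to cancer. The Aqp2 calls below are therefore not independent of that choice. The cells were left untreated (Control), given angiotensin II at 100 nM (Ang II), or given Ang II after pre-treatment with 10 µM of Losartan, an AT1 receptor antagonist (Ang II+Los), or of PD123319, an AT2 receptor antagonist (Ang II+PD123319). RNA was taken at 3 h and at 6 h, with 4 replicates in each of the 8 groups, and each of the 32 samples was hybridised to 1 single-colour array. All groups are of the same line in medium with serum, no antagonist was given without Ang II, and the labels do not say whether replicates were separate cultures, so p-values measure the spread between these samples. Each slide held Control, Ang II, Ang II+Los and Ang II+PD123319 of 1 replicate number, at positions 1 to 4 in that order, so position and treatment cannot be told apart.

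Aquaporins are membrane channels that let water follow osmotic gradients. Some, the aquaglyceroporins, also pass glycerol. In the brain Aqp4 is the main water channel of astrocytes, where it gathers at end-feet around vessels, and Aqp1 is best known from the choroid plexus and from gliomas. In the kidney Aqp2 is moved to the apical membrane of the collecting duct by vasopressin through cAMP, which makes it the classic hormone-regulated member of the family. The comparisons below ask whether Ang II, with or without a receptor antagonist, changed the RNA level of any of these channels.

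The probes of the members that could be tested are shown because each value below is the binding to 1 short stretch, and because the 3 probes of Aqp4 did not give the same picture. They are 60-base probes of the array design, given 5′ to 3′. Aqp4 probe A_64_P018751 and the Aqp8 probe are shown whole and of the others 30 bases are shown, bases 31 to 60 for Aqp2 and the first 30 for the rest. Capitals mark AATAAA, the polyadenylation motif, in the Aqp2 probe and the TGA stop codon in the Aqp4 probe.
Aqp1 A_44_P299247: ccactggcatagtacagctgcatactcttc
Aqp2 A_64_P007189: cctgtacctgcAATAAAtccactatctctg
Aqp4 A_64_P018751: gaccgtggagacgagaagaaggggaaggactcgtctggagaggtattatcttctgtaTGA
Aqp4 A_64_P036063: attcactataatccttcttccccctcagca
Aqp4 A_44_P561166: atcacccagatcacgataaacctgcaactt
Aqp5 A_43_P11560: agaatgtctgccacagctcagacctcagag
Aqp8 A_64_P152776: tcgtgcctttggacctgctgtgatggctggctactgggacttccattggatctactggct
Aqp11 A_44_P274083: gctgcacaacaaccaactgagtaacaagaa

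On the rn4 build named in the file headers, the Aqp2 probe lies at chr7:138330832-138330891, the Aqp5 probe starts 10134 bases further on and the Aqp6 probe 8968 bases beyond that, all on the plus strand, so these 3 genes are neighbours. The Aqp4 probes lie on the minus strand of chromosome 18. A_64_P018751, at chr18:6630285-6630344, ends in the stop codon. A_64_P036063 starts 623 bases and A_44_P561166 3854 bases further along the transcript. The Aqp1 probe lies at chr4:84110125-84110184, the Aqp8 probe at chr1:182335905-182335964 and the Aqp11 probe at chr1:154974018-154974077. No annotation of rn4 was used here, so exons and untranslated regions are not given beyond this.

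Detection separated the family before any treatment was compared. The scanner software marks a probe as well above background, and a gene was tested at a time interval if any group had a probe of it so marked on each of its 4 arrays. Aqp1, Aqp2, Aqp8 and Aqp11 passed at 3 h, which is 4 of 10 members among 13630 genes, and Aqp4 and Aqp5 joined them at 6 h, which is 6 of 10 among 16446 genes. Aqp1, with a processed signal between 718 and 5736, was detected on 16 of 16 arrays at both times. Aqp2 was detected on 15 of 16 arrays at 3 h and 16 of 16 at 6 h, Aqp11 on 14 and 16, Aqp8 on 12 and 16, and Aqp5 on 11 and 16. The software required a larger multiple of the background spread at 6 h (13) than at 3 h (2.6) and the slides were different, so numbers of detected probes are not comparable between the times.

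**Figure D1:**
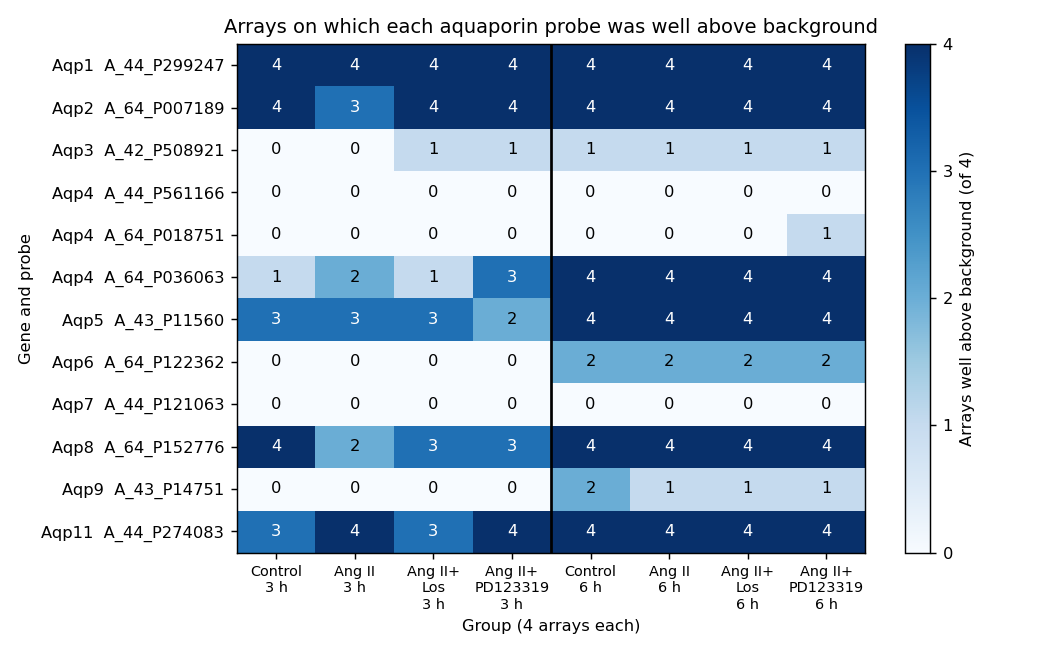
Number of arrays, of 4 in each group, on which each of the 12 aquaporin probes was well above background, with groups of 3 h at left and of 6 h at right. Only Aqp1 reached 4 in all 8 groups, and the 3 Aqp4 probes differ from each other.

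The 3 aquaglyceroporins were at or near background. Aqp3, a glycerol and water channel of epithelia printed 10 times on each array, was well above background on 2 arrays at 3 h and 4 arrays at 6 h. The 4 arrays at 6 h were 1 of each group, all of replicate 1. Aqp7, the glycerol channel of fat cells, was well above background on 0 of 16 arrays at either time. Aqp9, a channel for neutral solutes known from liver and astrocytes, was so on 0 arrays at 3 h and 5 at 6 h. Aqp6, a vesicle-bound channel of the kidney that also passes anions, was well above background on 0 arrays at 3 h and 8 at 6 h, which were replicates 1 and 2 of each of the 4 groups and none of replicates 3 and 4. At 6 h its normalized log2 values ran from 1.32 to 4.33. For these 4 genes no fold change is given, since in no group was the probe detected on every array.

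Across the array, the 16 arrays of 3 h had 49.1 to 59.1% of probes well above background and those of 6 h 59.0 to 77.1%. At 3 h the array of Ang II+Los replicate 2 stood apart most, with a median correlation of 0.942 to the others against 0.955 for the next. Of 9 glial genes looked up, 6 (Vim, Nes, S100b, Glul, Cspg4 and Aldoc) were detected on all 16 arrays at both times, while Slc1a3 and Fabp7 were on none and Gfap, the astrocyte filament gene, was on 0 at 3 h and 2 at 6 h. Of 5 microglial markers, 3 at 3 h and 4 at 6 h were on all arrays (Aif1, Itgam and Cx3cr1 at both), with Ptprc on none. For neurons this was 1 and 2 of 4, for endothelium 1 and 2 of 5, for oligodendrocytes 1 and 3 of 5, and for the kidney collecting duct 0 and 1 of 5, the 1 being Avpr2, the vasopressin receptor. Agtr1a, Agtr1b and Agtr2, the genes of the receptors that Ang II binds, were well above background on 0 arrays. The paper gives qPCR levels for Agtr1 and Agtr2, so these array calls do not show that the RNAs were absent. All samples are of the same cultured line, so detection of a marker was not read as the presence of another cell type.

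Aqp2 was lower with Ang II at 6 h, and higher with Ang II+Los than with Ang II alone or with Ang II+PD123319. The normalized log2 signals of replicates 1 to 4 were 6.03, 6.60, 6.49 and 6.38 in Control, with a mean of 6.37 ± 0.25 (SD, n = 4). In Ang II they were 5.55, 5.83, 5.76 and 5.88, with a mean of 5.75 ± 0.15 (SD, n = 4). All 4 Ang II values lay below the lowest Control value. In Ang II+Los they were 5.85, 6.21, 6.43 and 6.10, with a mean of 6.15 ± 0.24 (SD, n = 4). In Ang II+PD123319 they were 5.50, 6.00, 5.73 and 5.99, with a mean of 5.80 ± 0.24 (SD, n = 4). The Losartan group overlapped both Control and Ang II, whereas no value of the PD123319 group reached the lowest Control value.

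Differences below come from a limma fit with the slide as a block, and a gene passed, rose or fell at the study's limit, an unadjusted p under 0.05. The p printed is adjusted over all genes, which is the stricter reading. Aqp2 fell by 0.62 on the log2 scale in Ang II x Control at 6 h (SE 0.09, 95% confidence interval -0.81 to -0.43), to 0.651 of the Control level, and was lower on 4 of 4 slides. The adjusted p was 0.0573. Each array averages over the cells of a dish, so fewer cells with the RNA and less RNA per cell cannot be told apart. In Ang II+PD123319 Aqp2 also fell from Control, by 0.57 (SE 0.09, 95% confidence interval -0.76 to -0.38, adjusted p = 0.0249), again on 4 of 4 slides. This was the only aquaporin result with an adjusted p under 0.05. Over the alternative fits and tests tried, its adjusted p ran from 0.0152 to 0.595, with 0.0768 by limma with no filter. With Losartan Aqp2 rose by 0.39 over Ang II alone (SE 0.09, 95% confidence interval 0.20 to 0.59, adjusted p = 1.00), on 4 of 4 slides. These comparisons share arrays of Control or Ang II and are not independent of each other.

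The 2 antagonists were then set against each other for Aqp2. PD123319 differed from Ang II alone at 6 h by 0.05, with a 95% confidence interval of -0.14 to 0.25 (adjusted p = 0.960), and did not pass. The level in Ang II+Los was 0.34 above that in Ang II+PD123319 (SE 0.09, 95% confidence interval 0.15 to 0.54, adjusted p = 0.369), on 4 of 4 slides. This difference missed the limit by the methods' t-test, which the series record describes as paired, and by limma without the block. It was 0.22 without replicate 3 and still passed. With Losartan Aqp2 was still below Control, where it fell by 0.23 (95% confidence interval -0.42 to -0.03, adjusted p = 0.165). That decrease missed the limit without replicate 1 (-0.24), replicate 2 (-0.18) or replicate 4 (-0.21).

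**Figure D2:**
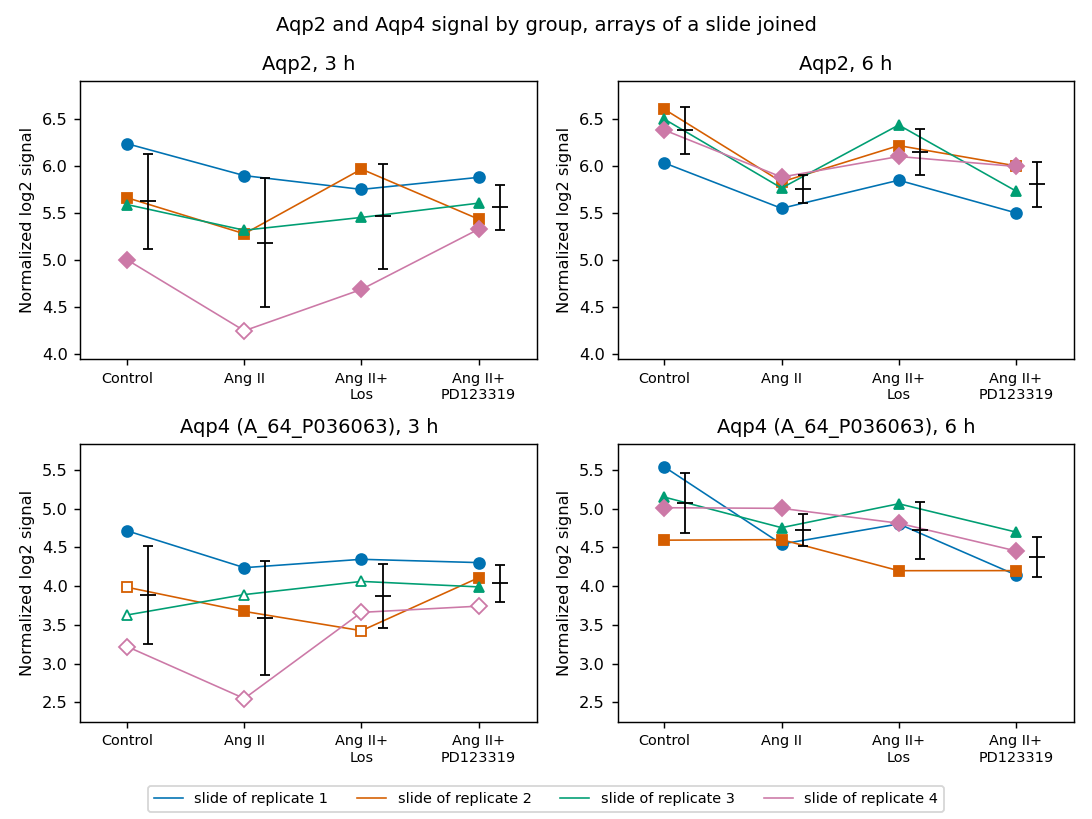
Normalized log2 signal (y axis) of Aqp2 and of Aqp4 probe A_64_P036063 by group at 3 h and 6 h. Lines join the 4 arrays of a slide, open symbols were not well above background, and black bars give mean ± SD. At 6 h all 4 Aqp2 values of Ang II and of Ang II+PD123319 lie below all Control values.

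At 3 h Aqp2 was lower with Ang II on 4 of 4 slides as well, but over a wider spread between slides. The values of replicates 1 to 4 were 6.23, 5.66, 5.59 and 5.00 in Control and 5.89, 5.28, 5.31 and 4.25 in Ang II, the last of them not well above background. The groups overlapped, and the decrease shows within slides. Aqp2 fell by 0.44 (SE 0.18, 95% confidence interval -0.82 to -0.05, adjusted p = 0.367). It missed the limit without replicate 1 (-0.47), replicate 3 (-0.49) or replicate 4 (-0.33). The decrease also missed it without the block and with the deposited values in place of those computed here. Within scan 1 (replicates 1 and 2) the mean difference was -0.36 and within scan 2 (replicates 3 and 4) -0.51. At 6 h it was -0.66 within scan 3 (replicates 1 to 3) and -0.50 on the single slide of scan 4. The change at 6 h minus that at 3 h was -0.18 (95% confidence interval -0.61 to 0.24, adjusted p = 0.845), so a difference between the times was not detectable.

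In the antagonist groups at 3 h the Aqp2 values were 5.75, 5.96, 5.45 and 4.69 with Losartan and 5.88, 5.43, 5.60 and 5.33 with PD123319. They overlapped with Control and Ang II, and no comparison with them passed. PD123319 against Ang II was 0.38 (95% confidence interval -0.01 to 0.76), and passed without replicate 1 (0.51) or replicate 2 (0.45) but was 0.14 without replicate 4. PD123319 against Control was -0.06 at 3 h and -0.57 at 6 h. The difference between these was -0.51 (95% confidence interval -0.93 to -0.09, adjusted p = 0.734), which passed the limit but missed it without replicate 3 (-0.42). Losartan against PD123319 was -0.10 at 3 h, and its difference between the times, 0.44 (95% confidence interval 0.02 to 0.86, adjusted p = 0.382), passed with all arrays but missed the limit without replicate 1 (0.43), replicate 3 (0.30) or replicate 4 (0.34). Without replicate 2 it was 0.69.

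Aqp4 could be tested only at 6 h, through 1 of its 3 probes, and was lowest with PD123319. The log2 signals of A_64_P036063 were 5.54, 4.59, 5.15 and 5.01 in Control, with a mean of 5.07 ± 0.39 (SD, n = 4). In Ang II+PD123319 they were 4.14, 4.20, 4.70 and 4.46, with a mean of 4.37 ± 0.25 (SD, n = 4). The groups overlapped, by replicate 2 of Control and replicate 3 of PD123319, but the PD123319 array was the lower one on each slide. Between these groups Aqp4 fell by 0.70 (SE 0.16, 95% confidence interval -1.05 to -0.34, adjusted p = 0.0522). Ang II alone gave 4.54, 4.60, 4.76 and 5.00, and Ang II+Los 4.80, 4.20, 5.06 and 4.81. Both overlapped with Control, and their differences from it were -0.35 each (adjusted p = 0.242 and adjusted p = 0.229) and did not pass. For Ang II the 95% confidence interval was -0.70 to 0.01. Ang II x Control ran from -0.13 without replicate 1, where it did not pass, to -0.47 without replicate 2, where it passed.

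PD123319 against Ang II alone gave -0.35 for Aqp4 at 6 h (95% confidence interval -0.71 to 0.00, adjusted p = 0.788), lower on 4 of 4 slides, and did not pass. Without replicate 1 it was -0.34 and passed. Losartan against PD123319 was 0.35 (95% confidence interval -0.01 to 0.70) and did not pass, and was 0.46 and passed without replicate 2. A difference between the antagonists in Aqp4 was therefore not shown with all arrays.

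The other 2 Aqp4 probes gave almost no signal. A_44_P561166 was well above background on 0 of 32 arrays. A_64_P018751, the probe that holds the stop codon, was so on 1 array, replicate 1 of Ang II+PD123319 at 6 h, with a log2 value of 4.71 against 1.01 to 1.08 on the other 3 arrays of that group. On this same array A_64_P036063 had its lowest value of the 16. When all 3 probes were averaged, the Aqp4 difference in Ang II+PD123319 x Control was 0.035 (adjusted p = 0.943) and did not pass, so the decrease rests on 1 probe. At 3 h A_64_P036063 was well above background on 7 of 16 arrays, at least 1 in each group, and its group means lay between 3.59 and 4.04.

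Aqp1, the constitutive water channel with the most detected arrays, was lower with Losartan at 3 h. The values were 11.61, 11.05, 10.54 and 10.97 in Control and 11.58, 11.09, 10.12 and 10.91 in Ang II. With Losartan they were 11.12, 10.33, 10.23 and 10.83, below Control on 4 of 4 slides although the groups overlapped. Those of PD123319 were 11.57, 11.13, 10.33 and 10.83. With Losartan Aqp1 fell by 0.42 from Control (SE 0.14, 95% confidence interval -0.71 to -0.12, adjusted p = 0.176) and by 0.30 from Ang II (SE 0.14, adjusted p = 0.426). It was also 0.34 below Ang II+PD123319 (95% confidence interval -0.64 to -0.04, adjusted p = 0.338). The probe is printed 10 times, and the SD between its spots within an array had a median of 0.09.

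The Aqp1 decrease was uneven between slides. Losartan against Ang II gave a mean difference of -0.61 in scan 1 and 0.01 in scan 2. Without replicate 2, whose Losartan array stood apart at 3 h, the difference was -0.15 and missed the limit, as it did without replicate 1 (-0.25) or replicate 4 (-0.37). Losartan against Control gave -0.61 and -0.23 in the scans and missed the limit without replicate 1 (-0.39). Losartan against PD123319 missed it without replicate 1 (-0.30) or replicate 2 (-0.18). This last difference and that of Losartan against Ang II also missed it by the methods' t-test and without the block. Both missed it as well with 75th percentile scaling and with only the 8 arrays compared. Losartan against Control missed it without the block too.

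At 6 h the Aqp1 group means lay between 11.17 and 11.50 and no comparison passed, with 0.26 in Ang II x Control (95% confidence interval -0.09 to 0.62) and 0.055 there without replicate 2. Control replicate 2, at 10.54, was below the other 15 arrays, which ran from 11.09 to 11.66. PD123319 against Control was 0.33 and did not pass. It was 0.073 without replicate 2, and 0.46 and past the limit without replicate 3. The Losartan difference from Control was 0.58 higher at 6 h than at 3 h (95% confidence interval 0.14 to 1.03, adjusted p = 0.175), and at 0.30 missed the limit without replicate 2.

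**Figure D3:**
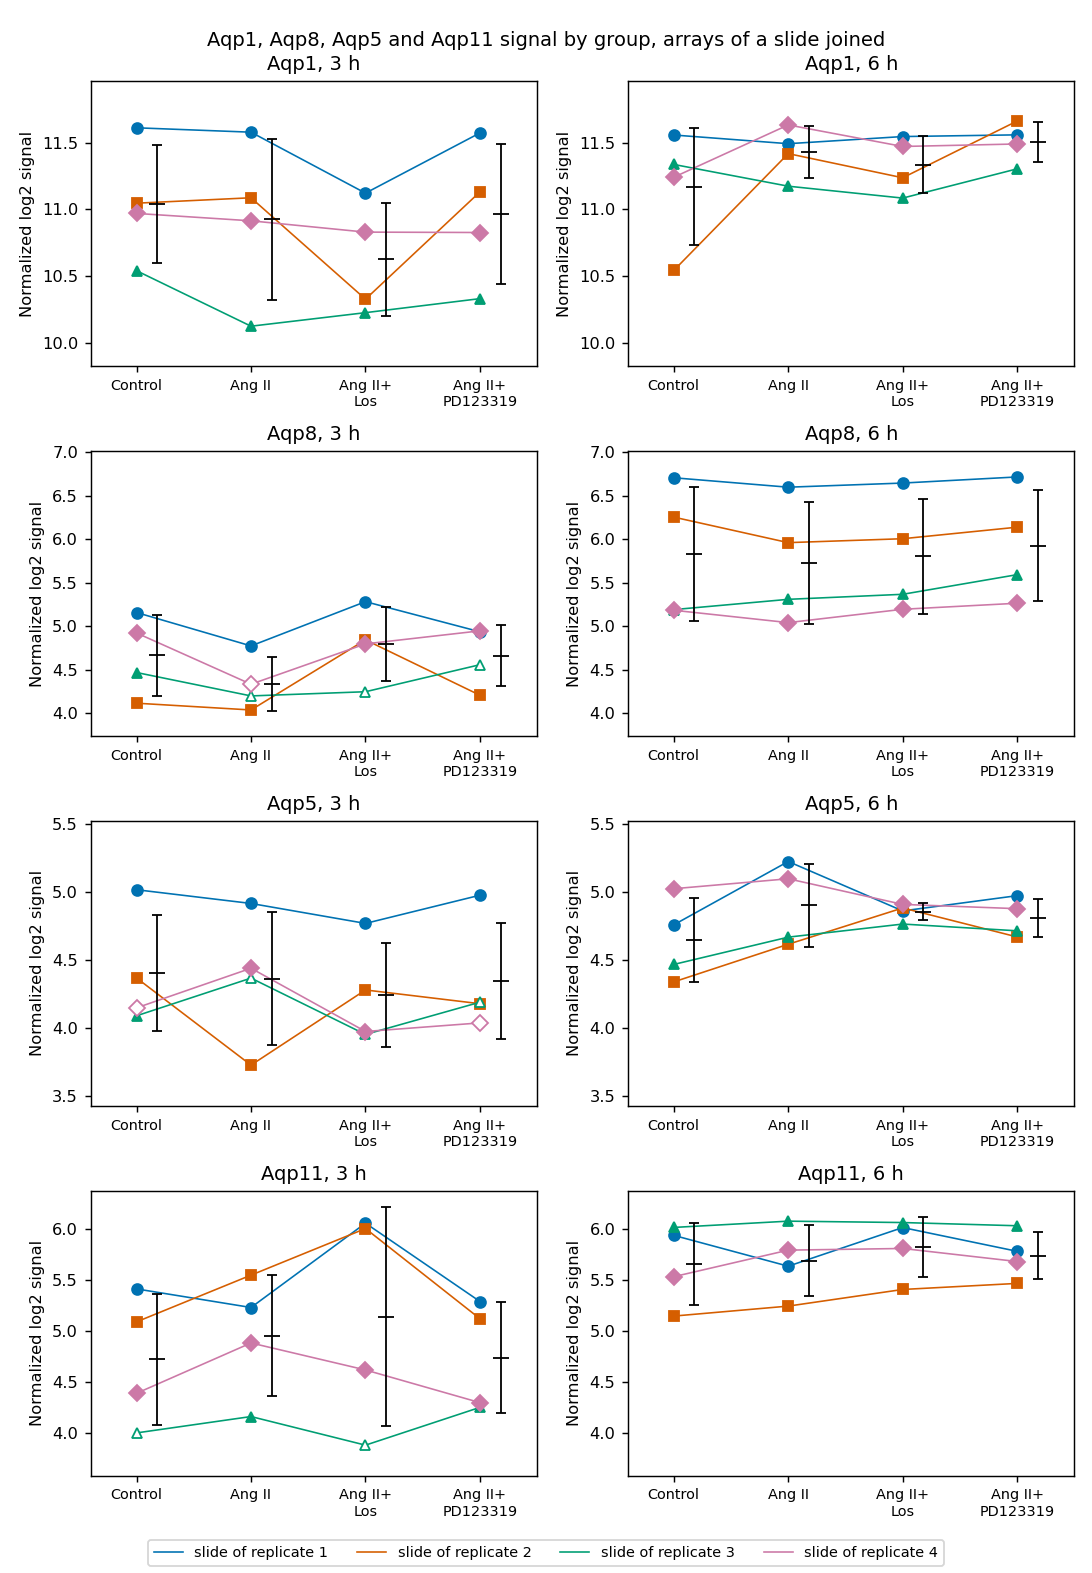
Normalized log2 signal (y axis) of Aqp1, Aqp8, Aqp5 and Aqp11 by group at 3 h and 6 h. Lines join the 4 arrays of a slide, open symbols were not well above background, and black bars give mean ± SD. For Aqp8 at 6 h the slides stand in the same order in every group, with replicates 3 and 4 of Control nearly at 1 value.

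Aqp8, a water channel that also passes hydrogen peroxide, was higher with Losartan than with Ang II alone at 3 h. Its values were 4.77, 4.03, 4.20 and 4.33 in Ang II and 5.28, 4.84, 4.24 and 4.80 in Ang II+Los. The Losartan array was the higher one on 4 of 4 slides, and the groups overlapped. At this time Control was the only group with the probe well above background on 4 of 4 arrays. Ang II replicates 3 and 4 and replicate 3 of each antagonist group were not, so the test rests on a filter met by Control alone, and with the strict filter Aqp8 was not tested. In the fit Aqp8 rose by 0.46 (SE 0.15, 95% confidence interval 0.12 to 0.79, adjusted p = 0.426), with 0.66 in scan 1 and 0.26 in scan 2. Without replicate 1 it was 0.44 and missed the limit, as the rise did by the methods' t-test and without the block. In Control the values were 5.16, 4.11, 4.47 and 4.92, and Ang II x Control gave -0.33 (adjusted p = 0.394), lower on 4 of 4 slides but not past the limit. Because the gene was admitted through Control, the higher group here, this direction is favoured by the filter. Without replicate 2 the difference was -0.41 and passed. PD123319 against Ang II gave 0.33 (95% confidence interval -0.01 to 0.66) and did not pass, and was 0.38 and passed without replicate 2. Losartan and PD123319 differed by 0.13 (95% confidence interval -0.20 to 0.47) and did not pass.

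At 6 h the slides differed more in Aqp8 than the groups did. Control ran from 5.18 to 6.71, while the 4 group means lay between 5.73 and 5.93. Within slides Aqp8 rose by 0.20 with PD123319 over Ang II (SE 0.08, 95% confidence interval 0.03 to 0.37, adjusted p = 0.725), on 4 of 4 slides, and at 0.19 missed the limit without replicate 4. Losartan against Ang II was 0.08 (95% confidence interval -0.09 to 0.24), which was 0.38 lower than at 3 h (adjusted p = 0.704). This difference between the times passed, but missed the limit without replicate 1 (-0.35), replicate 2 (-0.25) or replicate 4 (-0.40). Ang II x Control was -0.11 and did not pass. It was -0.044 without replicate 2, and -0.18 and past the limit without replicate 3.

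Aqp5, a water channel of secretory glands and the neighbour of Aqp2, had the opposite sign to Aqp2 in Ang II x Control at 6 h. The values were 4.76, 4.34, 4.47 and 5.03 in Control and 5.23, 4.62, 4.67 and 5.10 in Ang II. The Ang II array was higher on 4 of 4 slides and the groups overlapped. Aqp5 rose by 0.25 (SE 0.10, 95% confidence interval 0.03 to 0.48, adjusted p = 0.197). It missed the limit without replicate 1 (0.18), replicate 2 (0.25) or replicate 3 (0.27). The rise also missed it by the methods' t-test, without the block, with 75th percentile scaling and with the normexp background. It passed in 6 of 13 alternatives tried. The antagonist groups had means of 4.86 ± 0.06 for Losartan and 4.81 ± 0.14 for PD123319 (SD, n = 4), and no comparison with them passed. They were 0.21 and 0.16 above Control, 0.095 and 0.11 without replicate 2, and 0.31 and 0.26, both past the limit, without replicate 4. At 3 h, where Aqp5 was not tested, the group means lay between 4.25 and 4.41.

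Aqp11, an unorthodox member of the endoplasmic reticulum, passed in none of the comparisons. At 3 h the largest difference was between Losartan and Control, 0.42 with a 95% confidence interval of -0.01 to 0.85 (adjusted p = 0.237). Its values with Losartan were 6.06, 6.01, 3.88 and 4.62 against 5.42, 5.09, 4.00 and 4.39 in Control. Replicates 1 and 2 lay higher than 3 and 4 in every group, and the Losartan difference was 0.78 in scan 1 and 0.05 in scan 2. Without replicate 3, which was below Control, it was 0.60 and passed, as did Losartan against PD123319 (0.66, against 0.40 with all arrays). Without replicate 2 these were 0.25 and 0.24 and did not pass. At 6 h its group means lay between 5.66 and 5.83, with 0.03 in Ang II x Control (95% confidence interval -0.17 to 0.22). Losartan against Control was 0.17 there and did not pass, and was 0.20 and passed without replicate 1.

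**Figure D4:**
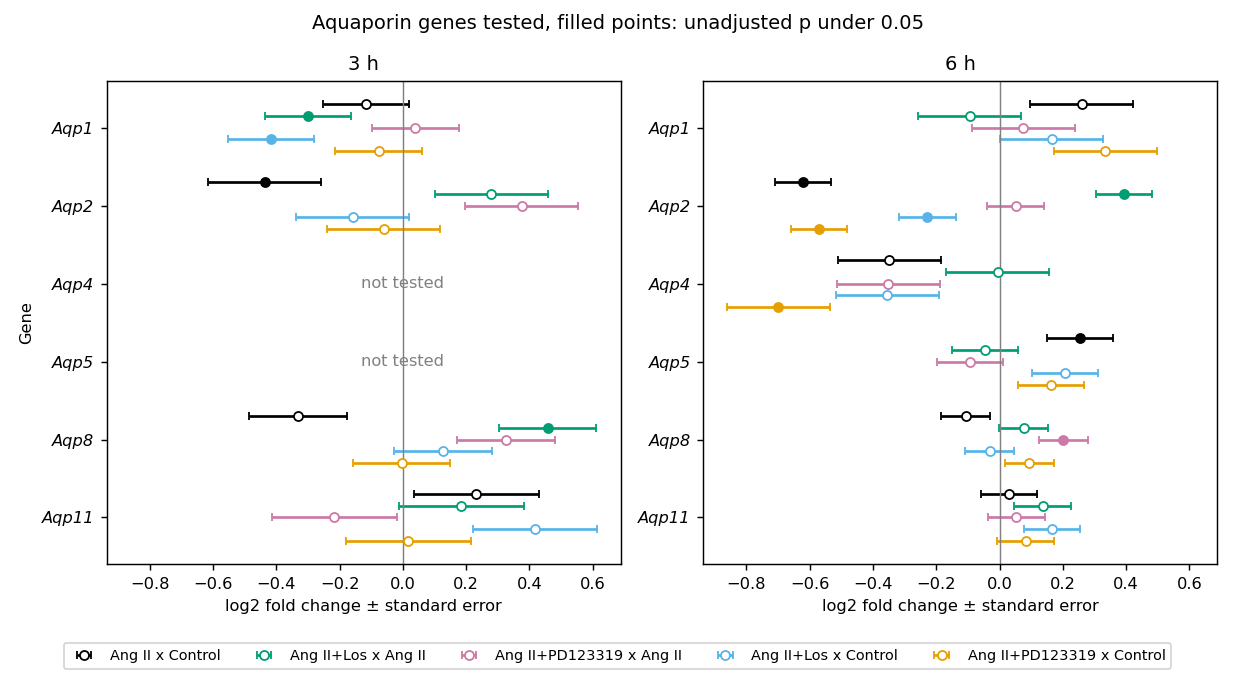
log2 fold change ± standard error (x axis) of the aquaporin genes tested, in 5 comparisons at 3 h and 6 h, from the limma fit with the slide as a block. Filled points had an unadjusted p under 0.05, and Aqp2 at 6 h has the most of them, 4 of 5.

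Few members could be counted in any comparison, and their counts are given beside the share of all genes past the same limit. For Ang II x Control, 1 of 4 tested members passed at 3 h (12.7% of all genes tested) and 2 of 6 at 6 h (21.5% of all genes tested). The members' median difference was -0.22 at 3 h and -0.04 at 6 h, beside 0.00 and -0.01 over all genes. The 3 h median draws on Aqp8, which was admitted through Control alone, so the filter favours its negative sign. Losartan against Ang II had 2 of 4 members past it at 3 h (11% of all genes) and 1 of 6 at 6 h (1.99%). PD123319 against Ang II had 0 of 4 by limma (3.01%) and 1 of 6 (6.37%).

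Against Control, Ang II+Los had 1 of 4 members past the limit at 3 h (21.7% of all genes) and 1 of 6 at 6 h (22%), and Ang II+PD123319 had 0 of 4 by limma (7.58%) and 2 of 6 (22.9%). At an adjusted p under 0.05, PD123319 against Control at 6 h had 1 of 6 members (1.38% of all genes), whereas Losartan against Control (1.36%) and the F-test at 6 h (0.00608%) had 0 of 6 by limma. Losartan against PD123319 had 1 of 4 (14.7%) and 1 of 6 (8.06%). A limma F-test for any difference among the 4 groups passed for Aqp1 at 3 h (adjusted p = 0.406), which is 1 of 4 members (11.6% of all genes). At 6 h it passed for Aqp2 (adjusted p = 0.0628) and Aqp4 (adjusted p = 0.143), which is 2 of 6 members (19% of all genes).

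The change at 6 h minus that at 3 h was fitted for the 4 members kept at both times. It passed for 0 of 4 in Ang II x Control by limma (7.18% of all genes) and for 0 of 4 with PD123319 against Ang II (1.73%). It passed for 1 of 4 each with Losartan against Ang II (Aqp8, 5.05% of all genes), Losartan against Control (Aqp1, 20%), PD123319 against Control (Aqp2, 6.18%) and Losartan against PD123319 (Aqp2, 12.9%).

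Genes tied to aquaporin function were read from chosen lists in Ang II x Control. Of 12 genes of vasopressin and cAMP control, 10 were tested at 6 h, of which 5 rose and 1 fell, where 21.5% of all genes passed. The list's median was 0.14 beside -0.01 over all genes. Prkce, a protein kinase C, rose by 0.69 (SE 0.21), and Adcy6, an adenylyl cyclase of the vasopressin pathway, rose by 0.47 (SE 0.17). Vamp2, a vesicle fusion protein, rose by 0.36 (SE 0.15) and Avpr2, the kidney vasopressin receptor, fell by 0.36 (SE 0.16). At 3 h 7 were tested and 0 passed by limma, where 12.7% of all genes passed, with a median of 0.23. The adjusted p of the 6 genes that passed at 6 h lay between 0.105 and 0.230.

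Of 16 genes of cell volume transport, 15 were tested and 3 passed at each time, a share near that over all genes (12.7% at 3 h and 21.5% at 6 h), so the count is no result about the list. Clcn3, a chloride-proton exchanger, fell by 0.47 at 3 h (SE 0.16) and by 0.42 at 6 h (SE 0.14). Slc12a4, a potassium-chloride cotransporter, fell by 0.32 (SE 0.14) and by 0.29 (SE 0.09). Lrrc8c, a subunit of the volume-regulated anion channel, rose by 0.68 at 3 h (SE 0.29), and Wnk1, a kinase that controls these cotransporters, rose by 0.35 at 6 h (SE 0.11). Their adjusted p lay at 0.119 or above, and the list's median was 0.01 at 3 h and -0.16 at 6 h.

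Of 8 osmolyte genes, 8 were tested and 1 passed at each time, no larger a share than over all genes (12.7% and 21.5%). Slc6a12, a betaine transporter, fell by 0.53 at 3 h (SE 0.15, adjusted p = 0.322) and Sgk1, a stress-induced kinase, rose by 0.32 at 6 h (SE 0.10, adjusted p = 0.123). Of 8 genes of glycerol metabolism, 1 of 6 tested passed at 3 h and 1 of 8 at 6 h, beside the same shares of all genes. Gpd1l fell by 0.34 at 3 h (adjusted p = 0.336) and Gk, glycerol kinase, fell by 0.21 at 6 h (adjusted p = 0.164). Of 7 genes that anchor Aqp4 at the membrane or work beside it, 5 were tested at each time and 0 passed by limma, with medians of -0.07 and 0.02. Mip, the lens member of the family, was detected on 4 arrays at 3 h and 16 at 6 h and differed by -0.01 at 6 h. Aqp10 was not found by this name, and the array's Aqp12b, a RefSeq synonym of Aqp12a, was not analysed here.

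The genes whose slide-centred values followed each member most closely over the 16 arrays of a time were found among 7681 genes at 3 h and 9347 at 6 h, as a description only, since arrays of a slide and a group share their source. For Aqp2 they were Tmem229a (Pearson's r = 0.92) and Catsper4 (0.91) at 3 h, and Psd2 (0.89) and Mrs2 (0.86) at 6 h. For Aqp4 at 6 h they were Igfbp1 (0.93) and Nlrp1 (0.90). For Aqp1 they were Unc5c (0.96) and Ggt7 (0.95) at 3 h, and Kif22 (0.96) and Sox10 (0.95), a glial transcription factor, at 6 h. Aqp8 had Krtap4-13 (0.90) and Ka11 (0.88) at 3 h and Fxyd6 (0.86) and Fam71e1 (0.82) at 6 h. Aqp11 had Txndc9 (0.94) and Crem (0.94) at 3 h and Cbx7 (0.85) and Hoxa2 (0.81) at 6 h, and Aqp5 had Thoc7 (0.85) and Dram (0.84) at 6 h. No pair of genes was shared between the times for a member tested at both.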

How the data were processed

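Total RNA was labelled with Cy3 and hybridised to Agilent rat arrays. Per the file headers, Feature Extraction 9.5.3.1 gave every spot a background-subtracted processed intensity, with probe coordinates on rn4. The deposited log2 table is the log2 of that intensity (equal within 1e-05 in 100% of the 561803 values compared) with no scaling between arrays. Of all its entries, 38.2% are blank. The number of arrays limits the precision.

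Values were computed from the scanner intensity. Outlier-flagged spots were dropped, non-significant spots at 3 h took their error as value (6 h files hold surrogates), spots of a probe were averaged, and the 16 arrays of each time were normalized by cyclic loess (3 iterations, span 0.7). Probes had to be detected on each of the 4 arrays in any 1 group, and kept probes of a gene were averaged. All genes kept were fitted with limma 3.58.1 (R 4.3.3, data.table package 1.17.8) with the replicate number as a block, called at the study's limit of an unadjusted p under 0.05 (the methods name t-tests, paired in the series record, which were run as an alternative), and adjusted by Benjamini and Hochberg over all genes. Replicate numbers are slides: same-numbered arrays deviated together from their group means (r 0.149 to 0.917 at 3 h, 0.552 to 0.826 at 6 h). For arrays of different numbers r was -0.724 to 0.369 at 3 h, where the ranges overlap, and -0.655 to 0.129 at 6 h. Differences between times were fitted on 32 arrays with slides as blocks. The fit was tested on simulated data.

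The members and gene lists were chosen with earlier results of these data known. All members are named, with the 2 genes most like each and up to 4 genes of each list with the largest changes past the limit. Ang II+Los x Ang II+PD123319 and the differences between times other than for Ang II x Control were added after seeing the data. Figures used Python 3.11.15, numpy 2.4.6, pandas 2.3.3 and matplotlib 3.10.9. The qPCR of the study, which included Agtr1, Agtr2 and Aqp2, and its networks were not analysed here.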

Additional observations from a re-analysis of the deposited data

Results flagged for a closer look

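Of 96 groups of 4 arrays (12 probes in 8 groups), 5 held an array far from the other 3 by Dixon's criterion, which chance gives in about 1 of 20 groups. All 5 were arrays of replicate 1. In Ang II+PD123319 at 6 h, Aqp4 probe A_64_P018751 had a log2 value of 4.71 (the others 1.01 to 1.08) and A_44_P561166 one of 0.167 (the others 0.994 to 1.06). The second value is below background, where values have no order. In Ang II+PD123319 at 3 h, Aqp5 was at 4.98 (the others 4.04 to 4.19). At 3 h Aqp6 was at 1.77 in Control (the others 0.768 to 0.927) and Aqp9 at 1.74 in Ang II (the others 0.953 to 1.08). On both arrays the signal was significant but not well above background, and on the other 3 it was not significant.

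Of the differences between the times, 4 had an unadjusted p under 0.05 by limma. The change at 6 h minus that at 3 h was -0.381 for Aqp8 in Ang II+Los x Ang II (5.05% of all genes passed), 0.582 for Aqp1 in Ang II+Los x Control (20%), -0.509 for Aqp2 in Ang II+PD123319 x Control (6.18%) and 0.439 for Aqp2 in Ang II+Los x Ang II+PD123319 (12.9%). Their adjusted p lay between 0.175 and 0.734.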

How the results depend on the processing

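Aqp2 at 6 h kept its direction and its side of the unadjusted limit for Ang II against Control (-0.67 to -0.31), Losartan against Ang II (0.17 to 0.45) and PD123319 against Control (-0.63 to -0.28) under all 14 alternatives tried. Its only probe was detected on all 16 arrays, so changing the filter or fitting each probe alone could not move these estimates. For PD123319 against Control, the call at an adjusted p under 0.05 was not kept under all of them (adjusted p 0.0152 to 0.595). Aqp4 in Ang II+PD123319 x Control passed in 11 of 13: it missed the limit by the methods' t-test, and turned to 0.035 with no filter, where the 3 probes are averaged. The cause of the changes in the counts below was not tested. Of all values recomputed for single genes, 966 kept their side, 56 lost the limit, 43 gained it, 2 moved and 1 reversed. Most of those that kept their side had not passed in the main fit, so this count does not measure how stable the calls were.

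The counts of members past the limit for Ang II against Control at 3 h (1) were 2 with 75th percentile scaling or with the 8 arrays of the comparison alone, 0 with an adjusted p, the deposited values, no replicate block or the strict filter, and 0 to 2 with a replicate left out. At 6 h (2) they were 0 with an adjusted p, 1 with the deposited values, with fold limits of 1.2 and 0.8, with no replicate block, with the normexp background or with the methods' t-test, and 1 to 2 with a replicate left out. The difference between the times (0) was 1 with 75th percentile scaling or quantile normalization and 0 to 1 with a replicate left out. For Losartan against Ang II at 3 h (2) they were 1 with 75th percentile scaling, the 8 arrays, the deposited values, fold limits or the strict filter, 0 with an adjusted p, no replicate block or the methods' t-test, and 0 to 2 with a replicate left out. At 6 h (1) they were 0 with an adjusted p and 2 with no filter, where Aqp9 passed. For Losartan against Control at 3 h (1) they were 0 with an adjusted p or no replicate block, 2 with normexp, and 0 to 2 with a replicate left out. At 6 h (1) they were 2 with 75th percentile scaling, quantile normalization, the strict filter or no filter (Aqp9), 0 with an adjusted p, fold limits or no replicate block, and 0 to 1 with a replicate left out. For PD123319 against Ang II at 3 h (0) they were 2 with 75th percentile scaling, 1 with the 8 arrays or quantile normalization, and 0 to 2 with a replicate left out. At 6 h (1) they were 2 with the 8 arrays, the methods' t-test or the strict filter, 0 with an adjusted p, fold limits or no replicate block, and 0 to 2 with a replicate left out. For PD123319 against Control the count at 3 h (0) was 1 with no filter (Aqp3), and at 6 h (2) it was 1 with an adjusted p, no filter or the methods' t-test and 4 with normexp. In the F-test at 3 h (1) it was 2 with 75th percentile scaling, 0 with an adjusted p or no replicate block, and 0 to 1 with a replicate left out, and at 6 h (2) it was 0 with an adjusted p and 1 with the deposited values, no filter or normexp. Without the block, Aqp2 at 6 h still passed for Ang II against Control, Losartan against Ang II and PD123319 against Control, and Aqp4 for PD123319 against Control. Every other call of a member outside the F-test was lost without the block.

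Of the 12 probes, 4 were well above background on all 4 arrays of a group at 3 h, 1 on all 16 arrays and 7 on at least 1 array or by a positive and significant signal in place of the well-above call, and at 6 h 6 and 10 on at least 1 array. Low signal over background limits Aqp3, Aqp6, Aqp7 and Aqp9, for which no change can be read in either direction. The tested members other than Aqp1 were dim beside it as well. At 6 h the median processed signal was 2681 for Aqp1, 62.1 for Aqp2, 58.7 for Aqp8 and 57.5 for Aqp11. For Aqp5 it was 31.1 and for Aqp4 probe A_64_P036063 23.5.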
